A study of Mus musculus with 21 samples.

Results

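The epidermis of the adult mouse was described here from 3 RNA-seq libraries, those titled as the strain-specific control at 6 months of age, out of 21 libraries in 7 groups of 3. The libraries were chosen by their titles, and the labels give their tissue as epidermis and their genotype as WT (spelled Wt for replicate 3). The study was about the roles of the transcription factors AP-2a and AP-2b, the products of Tfap2a and Tfap2b, in this tissue, and the libraries of its knockout groups were not compared here. Epidermal sheets taken from mouse skin gave total RNA, ribosomal RNA was depleted, and the libraries were sequenced as paired-end reads. The labels do not name the strain, and they do not say whether the 3 libraries came from separate mice, so the spread between them may be technical in part. Each file held a count for 49315 genes.

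The epidermis is a layered epithelium that renews itself from below. Basal keratinocytes, which rest on the basement membrane and express Krt5 and Krt14, divide, and their daughters switch to Krt1 and Krt10 as they enter the spinous layer. In the granular layer they make filaggrin, loricrin and the lipids of the barrier, and they end as the dead, crosslinked squames of the cornified layer. Hair follicles and sebaceous glands are continuous with this sheet, and Langerhans cells, dendritic epidermal T cells, melanocytes and Merkel cells live within it.

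The libraries held 12041410, 11318181 and 15359124 counts in replicates 1, 2 and 3, and they differed in how many reads fell in genes that skin is not known to use. Such reads were measured in 1429 genes for odorant and vomeronasal receptors, which serve smell. Replicate 1 held 1.61 counts per kilobase of exon in these genes, replicate 2 held 3.18 and replicate 3 held 0.147. A count was present in 76.8%, 89.2% and 8.05% of the receptor genes, and in 35794, 39362 and 24329 of all genes. Replicates 1 and 2 therefore stood apart from replicate 3 at the bottom of the range. If that density held over all exons it would make up 1.56%, 3.29% and 0.112% of the counts. Levels of different genes are compared below in TPM (counts per exonic base, scaled to a sum of 1000000 over all genes), and 1 gene is compared between libraries in CPM (counts for each 1000000 counts of the library). A gene is called above the receptor level where its TPM exceeded the 99th percentile of the receptor genes in each of the 3 libraries (1.93, 2.42 and 0.560 TPM). A TPM value depends on which genes enter its total. With the total over nuclear protein-coding genes alone, without the repeat models described below, list medians were close to 2 times as high, such as 2016 in place of 1042 TPM for spinous, 388 for 201 for granular, 233 for 120 for basal and 81.6 for 42.0 for Langerhans cell genes. Values after ± are the SD over the 3 libraries, and their number limits the precision.

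The labelled tissue was checked against 4 markers, all of which were above the receptor level. Krt10, the type I keratin of suprabasal cells (chromosome 11, 99385254 to 99389364, minus strand, mouse build GRCm38), was at 5563, 5397 and 6562 CPM. Krt5, the type II keratin of basal cells (chromosome 15, 101707070 to 101712891, minus strand), was at 2434, 2515 and 2897 CPM. Krt14, the basal type I keratin that pairs with it (chromosome 11, 100203162 to 100207548, minus strand), was at 1018, 1171 and 1502 CPM. Each of these 3 keratins was highest in replicate 3, by less than 1.5 times the lowest library. Cd207, which encodes langerin of the Birbeck granules of Langerhans cells (chromosome 6, 83671215 to 83677857, minus strand), was at 21.6, 23.9 and 27.4 CPM, from 260, 270 and 421 counts. Per length, Krt10 stood at 7282 ± 2148 TPM, Krt5 at 3138 ± 869, Krt14 at 1856 ± 701 and Cd207 at 42.0 ± 12.3.

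Of 21734 protein-coding genes, 11959 (55.0%) were at 1 TPM or more in all 3 libraries and 10625 (48.9%) were above the receptor level. The first count was 11458 after the receptor density had been subtracted from every gene, and replicate 3 alone had 12508 such genes against 14313 and 16081 in replicates 1 and 2. At 100 TPM or more in all 3 libraries were 586 genes, and at 1000 TPM or more 33. The median protein-coding gene was at 2.79 TPM. The 100 genes with the most counts took 29.4 ± 2.25% of all counts, most in replicate 2 at 32.0%, and protein-coding genes together took 86.1 ± 0.801%.

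Among the 40 protein-coding genes with the highest mean TPM, many are known from keratinocytes. The keratins Krt10, Krt77, Krt5, Krt14, Krt15 and Krt1 were among them, at 7282 to 1398 TPM. With them stood Krtdap and Dmkn, which encode secreted proteins of differentiating keratinocytes, at 3808 ± 647 and 2714 ± 643 TPM. The desmosome genes Perp (2973 ± 363 TPM), Dsp (2143 ± 512) and Dsg1a (1392 ± 447) were there too, as was Sfn (1207 ± 25.8), the 14-3-3 protein of stratified epithelia. Ly6d and Ly6g6c, 2 small surface proteins of the Ly6 family, reached 1577 ± 213 and 1725 ± 538 TPM, and Serpinb2, a serine protease inhibitor, 1771 ± 557. Genes of general cell machinery were present as well, with Eef1a1 (5029 ± 1220 TPM) and Eef2 for translation, Actb and Actg1 for the cytoskeleton, and B2m, the light chain of class I histocompatibility molecules, at 5546 ± 2134 TPM. B2m varied most among these, with 2448, 1240 and 1749 CPM, and was lowest in replicate 2.

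**Figure D1:**
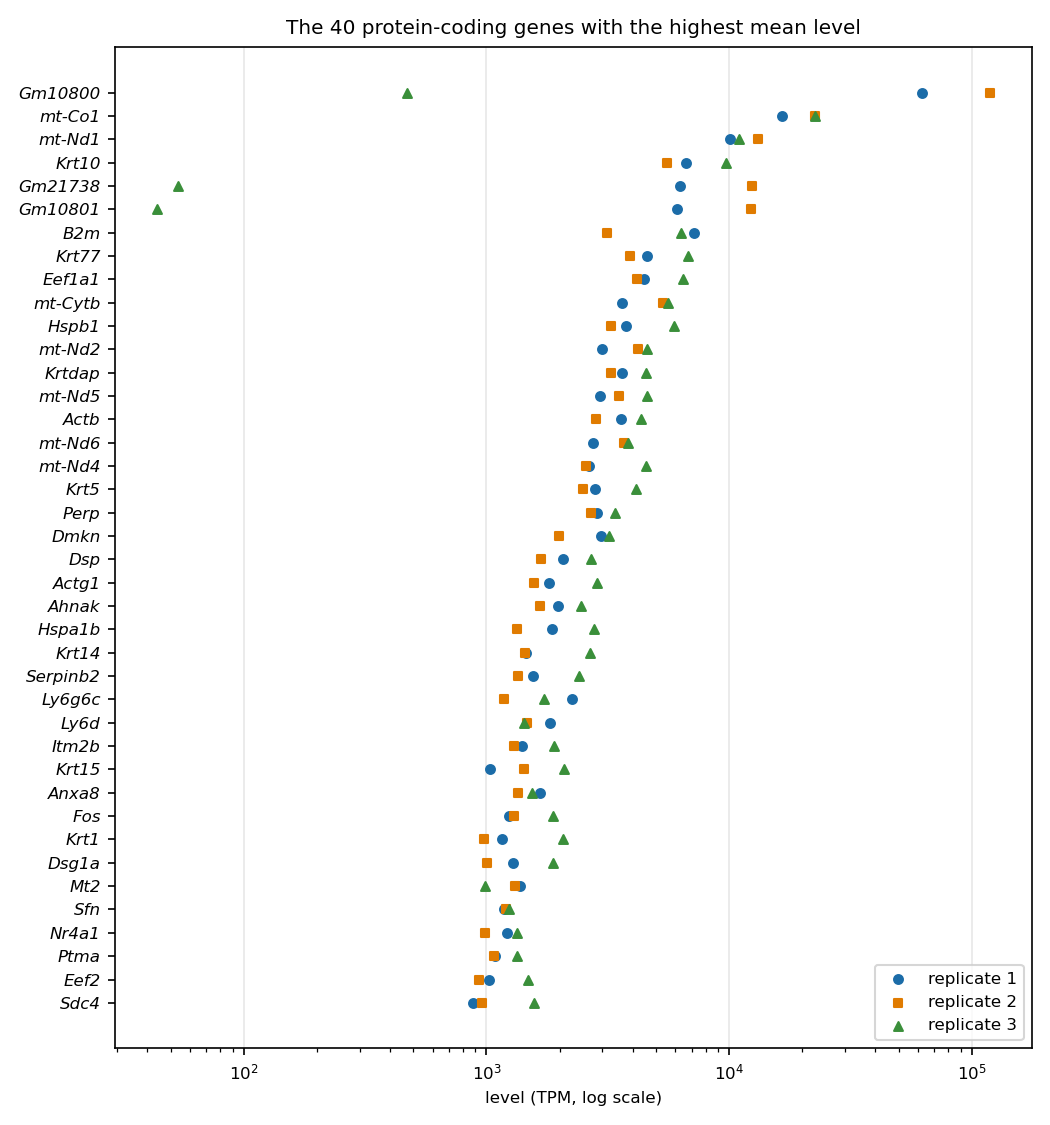
Level of the 40 protein-coding genes with the highest mean, in TPM on a log axis, with 1 point for each library. Most genes lie within a narrow band, with Krt10 between 5538 and 9681 TPM, whereas Gm10800, Gm21738 and Gm10801 lie far lower in replicate 3 than in replicates 1 and 2.

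Genes of the mitochondrial genome took 2.10%, 3.22% and 2.35% of the counts, and they split into 2 sets. The 7 genes mt-Co1, mt-Nd1, mt-Cytb, mt-Nd2, mt-Nd5, mt-Nd6 and mt-Nd4, subunits of the respiratory chain, were at 3251 to 20484 TPM. The other 6, mt-Nd3, mt-Nd4l, mt-Atp8, mt-Co3, mt-Co2 and mt-Atp6, were at 1.88 to 32.3 TPM in the same libraries. A search of the annotated transcripts, with at least 95% identity over 100 bases, found nuclear pseudogenes that match 5 of the 6 over nearly their whole length, with 95.9% to 100% identity. No such copy was found for mt-Atp8. Among the abundant set mt-Co1 also had a full-length copy, the pseudogene Gm13340 with 97.6% identity, and mt-Nd4, mt-Nd5 and mt-Nd2 had copies over 63.6%, 52.3% and 49.1% of their length, with 100%, 95.2% and 96.7% identity. How reads that map to several places were counted is not given in the sources used here, and its part in these levels was not tested.

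The most abundant transcripts outside the protein-coding class were structural and nuclear RNAs. Rn7sk, the 7SK RNA that restrains transcription elongation, was at 20741, 17691 and 14188 CPM and took 15.8%, 11.6% and 13.4% of the length-scaled total, so TPM values of all other genes move with it. Neat1, the RNA scaffold of nuclear paraspeckles, was at 29235, 25869 and 20489 CPM, and Malat1 of nuclear speckles at 17565, 18449 and 21132 CPM. Rmrp (4069, 5336 and 1326 CPM) and Rpph1 (2483, 3334 and 1666 CPM), the RNA parts of RNase MRP and RNase P, were both lowest in replicate 3. Rmrp differed 4.03-fold between libraries and Malat1 1.20-fold. Gm26917 and Gm42418 on chromosome 17 differed in the place of replicate 3, which was highest for the former and lowest for the latter. Gm26917 was at 23714, 29458 and 48448 CPM, and Gm42418 at 4820, 9565 and 2003 CPM. Gm42418 overlaps the RefSeq gene Rn18s-rs5, a ribosomal RNA copy, by 1245 bases, and Gm26917 ends 12 bases before it. The remaining members of the 10 highest were Gm23935 and Gm24270, models of 57 bases typed as miRNA, and Gm26870, which is described with the repeat models below.

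Basal keratinocytes were represented by all 14 genes of their list, each above the receptor level, with a median of 120 TPM. After Krt5 and Krt14 the highest was Krt15, a keratin of basal and follicle cells, at 1520 ± 535 TPM and 728, 1164 and 1187 CPM, lowest in replicate 1. Col17a1, the transmembrane collagen of hemidesmosomes, followed at 895 ± 437 TPM and 1678, 1493 and 2569 CPM. Trp63, the p63 factor that maintains the basal state, was at 357 ± 99.5 TPM and its libraries at 1281, 952 and 1182 CPM. The laminin chains Lama3 and Lamb3, which help to anchor basal cells, were nearly level with each other at 59.8 ± 24.0 and 58.1 ± 23.6 TPM. Replicate 3 was highest for 8 of the 14 genes, and over all 8765 genes with a mean of at least 10 CPM it was highest for 49.4%.

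Spinous keratinocytes gave the highest list median of the cell layers, 1042 TPM over 12 genes, all above the receptor level. Krt77, a type II keratin, was at 5312, 5278 and 6344 CPM and stood at 5075 ± 1489 TPM, above Krt1, the usual type II partner of Krt10, at 1398 ± 587 TPM. Neither gene had a near-identical copy among the annotated transcripts. Krtdap was nearly constant, at 977, 1025 and 986 CPM. Sbsn, which encodes suprabasin, was at 610 ± 217 TPM, and Dsc1, a desmocollin of upper layers, at 1431, 766 and 823 CPM, highest in replicate 1. Krt2, known in the mouse from the epidermis of ear, tail and sole, was the lowest of the list at 4.36 ± 2.66 TPM.

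Granular and cornified cells were represented by 25 genes, all above the receptor level, with a median of 201 TPM. Asprv1, the protease that processes filaggrin, led at 944 ± 323 TPM, followed by Cdsn, the corneodesmosome protein, at 821 ± 245. Lor, which encodes loricrin, was at 742, 319 and 307 CPM, higher in replicate 1 than in replicates 2 and 3. Replicate 1 was also highest for Kprp, at 867, 346 and 538 CPM, and Hrnr, the S100-fused protein hornerin, at 460, 219 and 276 CPM. The summed level of the list was 8778, 5230 and 6176 CPM, and 21 of the 25 genes were highest in replicate 1, against 31.5% of all genes with a mean of at least 10 CPM. Among fused S100 genes, Flg2 was at 716 ± 210 TPM and Flg, filaggrin itself, at 18.3 ± 5.35 TPM. The coding part of Flg is an array of near-identical repeats, and the handling of reads that fit more than 1 place was not tested for it. Rptn, Lce1e and Tgm3 were the lowest members, at 3.65 to 9.62 TPM.

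Promoters of 5 genes of the 3 layers, picked after their values and sequences were seen, are shown. They differ in the exact letters TATAAA, a form of the start-site element called the TATA box. Each is the 120 bases before the start, from RefSeq on GRCm38.p6, and capitals mark TATAAA and the AP-1 type motif TGANTCA. They are, in order, from chr15:101712906-101713025 (minus strand, basal), chr11:99389365-99389484 (minus, spinous), chr15:101869706-101869825 (minus, spinous), chr7:30787785-30787904 (plus, spinous) and chr3:92083143-92083262 (minus, granular).
Krt5: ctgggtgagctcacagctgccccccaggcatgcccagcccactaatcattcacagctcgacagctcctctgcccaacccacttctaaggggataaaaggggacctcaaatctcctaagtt
Krt10: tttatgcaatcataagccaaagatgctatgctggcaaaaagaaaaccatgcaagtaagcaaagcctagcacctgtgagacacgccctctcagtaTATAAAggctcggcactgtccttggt
Krt77: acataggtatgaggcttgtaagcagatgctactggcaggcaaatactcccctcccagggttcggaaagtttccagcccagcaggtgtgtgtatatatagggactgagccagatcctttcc
Krtdap: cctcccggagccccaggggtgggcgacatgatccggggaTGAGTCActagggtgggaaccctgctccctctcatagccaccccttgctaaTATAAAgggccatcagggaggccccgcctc
Lor: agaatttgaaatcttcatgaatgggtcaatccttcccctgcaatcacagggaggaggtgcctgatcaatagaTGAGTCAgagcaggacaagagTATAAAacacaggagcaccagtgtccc
TATAAA begins 26 bases before the start in Krt10, 30 in Krtdap and 27 in Lor, and TGAGTCA is present in Krtdap and Lor. Krt5 and Krt77 have neither of these exact strings in this stretch, so the spinous genes shown differ among themselves in them. Other TATA-like strings, such as tatatata in Krt77 and gataaaa in Krt5, were not searched. TATAAA on the gene's strand 20 to 40 bases before the start was found in 7 of the 24 promoters of the granular list (29.2%), in 2 of 9 of the spinous list and in 0 of 12 of the basal list, for which 22 of 25, 7 of 12 and 8 of 14 genes had an entry. The share over all 32851 promoters in the RefSeq table was 1.99%. TGANTCA, on either strand in the 250 bases before the start, was in 5 of 24, 5 of 9 and 0 of 12 of these promoters and in 6.75% of all. Counted by gene it was in 5 of 22, 3 of 7 and 0 of 8, and in 7.82% of all genes. The AP-2 type motif GCCNNNGGC, searched the same way, was in 1 of 24, 0 of 9 and 0 of 12, and in 13.7% of all. The basal entries include that of Krt14, which lies inside the gene and held none of these motifs. These are matches of letters, and promoters of 1 gene can overlap.

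Over the whole family, 21 of 53 keratin genes were above the receptor level, against 48.9% of all protein-coding genes. At 100 TPM or more in all 3 libraries were 10 of them, and the family together took 1.78%, 1.85% and 2.20% of the counts. Below the 6 keratins already named came Krt80 (1045 ± 294 TPM), a filament protein of late differentiation, and Krt17 (676 ± 202), known from follicles and from injured skin. The injury-associated keratins Krt16 and Krt6a differed most between libraries. Krt16 was at 19.6, 67.9 and 173 CPM, highest in replicate 3, and Krt6a was at 55.6, 248 and 91.3 CPM, highest in replicate 2. Their order thus differed, though both were lowest in replicate 1. Krt6b, which shares 53.4% of its length with Krt6a at 97.0% identity, was at 2.82, 1.41 and 0.651 CPM.

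**Figure D2:**
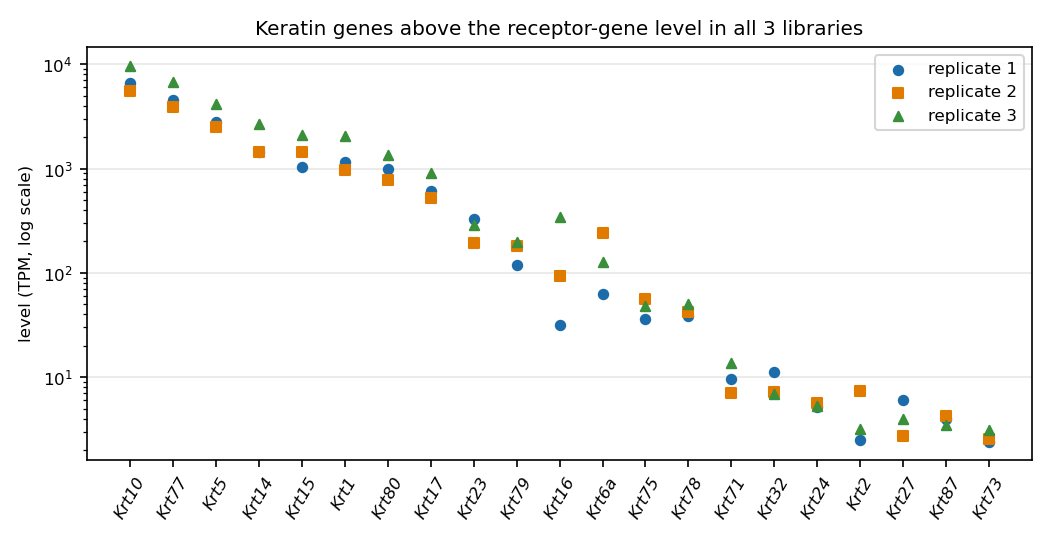
Level of each keratin gene above the receptor level, in TPM on a log axis, ordered by mean, with 1 point for each library. The levels fall from Krt10 at 7282 TPM to Krt73 at 2.69 TPM, and Krt16 and Krt6a spread most.

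Junction genes were abundant as a group. Of 15 desmosome genes 14 were above the receptor level, with a median of 348 TPM and a summed level of 21832, 20685 and 23259 CPM, which differed 1.12-fold. The desmocollin Dsc3 (1093 ± 381 TPM), the plakophilin Pkp1 (913 ± 227) and plakoglobin, encoded by Jup (733 ± 196), stood below Perp, Dsp and Dsg1a. Pkp2, the plakophilin of simple epithelia and heart, missed the receptor level at 2.11 ± 0.991 TPM. All 14 tight junction genes passed, led by Cldn1 at 728, 715 and 747 CPM and Cldn4 at 263, 285 and 326 CPM. Of 7 gap junction genes, which encode connexins, 5 passed, among them Gja1 at 207 ± 81.7 TPM. Of 15 hemidesmosome and basement membrane genes 14 passed, and Nid1, for nidogen, did not.

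Genes for the skin barrier's lipids and for shedding were present almost in full. Of 18 lipid genes 17 were above the receptor level, with a median of 79.9 TPM. They were led by the elongase Elovl4 (467 ± 78.7 TPM) and by Abca12, the lipid transporter of lamellar granules, at 1952, 1217 and 1390 CPM. The lipoxygenases Alox12b and Aloxe3 were at 108 ± 28.1 and 70.1 ± 26.0 TPM. Like the granular list, 15 of the 18 were highest in replicate 1, against the same 31.5%. Of 16 matched genes for proteases of desquamation and their inhibitors 15 passed. The inhibitors Serpinb2, Serpinb5 (819 ± 181 TPM) and Spink5 (702 ± 111) stood above the kallikreins, of which Klk7 was highest at 409 ± 124 TPM. In the late cornified envelope family 16 of 21 genes passed, led by Lce1m at 447, 230 and 189 CPM. Lce3a was listed at 0 in all 3 libraries, where 3 counts would be 0.249, 0.265 and 0.195 CPM.

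All 25 transcription factor genes chosen for keratinocytes were above the receptor level, with a median of 141 TPM. Klf4, a factor of barrier formation, led at 925, 1052 and 802 CPM, and Klf5 of the basal layer followed at 609 ± 183 TPM. Gata3 (374 ± 190 TPM), Grhl1 (364 ± 91.6) and Zfp750 (315 ± 91.9) were next to Trp63. Of the AP-2 genes that the study is about, Tfap2a was at 165, 140 and 210 CPM and Tfap2b at 57.3, 86.6 and 71.0 CPM. Per length Tfap2a stood at 141 ± 55.3 TPM, Tfap2c at 66.7 ± 11.8 and Tfap2b at 29.1 ± 6.11. Per length Tfap2a stood above Tfap2c, and Tfap2c above Tfap2b, in each of the 3 libraries. Msx2 was the lowest of the list at 6.33 ± 1.73 TPM.

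The immediate early genes, which respond quickly to many kinds of stimulus, had a list median of 585 TPM, between those of the desmosome and the spinous lists. Fos was at 1154, 1414 and 1420 CPM, Egr1 at 1946, 1299 and 1637 CPM, and Nr4a1 at 1192, 1128 and 1064 CPM. All 12 were above the receptor level, from Egr2 at 85.2 ± 24.1 TPM upward, and 7 of the 12 were lowest in replicate 3, as were 21.8% of all genes with a mean of at least 10 CPM. Dusp1, a phosphatase of MAP kinases, was at 1207, 984 and 618 CPM. Hspa1b, an inducible heat shock protein, was at 2072, 1724 and 2493 CPM, but its 99.2% identical neighbour Hspa1a (547, 478 and 543 CPM) shares 78.5% of its length, so the split between them is uncertain.

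Ligands, receptors and targets of epithelial growth signalling were all above the receptor level, 17 of 17, with a median of 92.9 TPM. The ligand Ereg, epiregulin, led at 320 ± 229 TPM and varied most of those named, at 958, 346 and 257 CPM. Epgn (184 ± 42.3 TPM), Hbegf (124 ± 47.9) and Areg (86.8 ± 27.3) were further ligands of the same receptor family. The receptors Erbb3, Erbb2 and Egfr were at 136 ± 43.3, 125 ± 37.3 and 92.9 ± 23.4 TPM. Of the Notch receptors, Notch2 was at 118 ± 29.3 TPM, Notch1 at 97.2 ± 38.3 and Notch3 at 60.7 ± 30.6, and their target Hes1 was at 160 ± 52.9 TPM.

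Genes of the hair follicle were present by region. In whole sheets, fewer cells of a type and less RNA for each cell cannot be told apart. All 7 upper follicle genes were above the receptor level, with a median of 96.4 TPM, and Plet1 was nearly constant at 288, 290 and 287 CPM. Of 8 genes of follicle stem cells 7 passed, led by Sox9 at 77.5, 162 and 124 CPM and Nfatc1 at 138, 149 and 135 CPM. Their summed level was 322, 543 and 541 CPM, and 7 of the 8 were lowest in replicate 1, against 40.2% of all genes with a mean of at least 10 CPM. Cd34, the surface marker of these cells, was at 5.31, 24.4 and 14.6 CPM. Of 18 genes for the inner root sheath and hair shaft only 5 passed, with a list median of 2.11 TPM, and the highest, Krt71 and Tchh, were at 10.1 ± 3.30 and 8.77 ± 2.44 TPM. In the sebaceous list 7 of 11 passed, against 48.9% of all protein-coding genes, and the list median was 6.79 TPM. In 10 of the 11 replicate 2 was highest, against 19.1% of genes with a mean of at least 10 CPM. Lists of lower level were also mostly highest in replicate 2, such as endothelium in 9 of 9 genes and melanocytes in 8 of 9. Replicate 2 held the most receptor reads, and their part in this order was not tested. Scd1, a fatty acid desaturase that other cells use as well, was at 718, 848 and 775 CPM, whereas the gland's wax synthases Awat1 and Awat2 did not pass, at 1.62 ± 0.875 and 1.69 ± 0.448 TPM.

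Resident immune cells left clear signals. All 9 Langerhans cell genes were above the receptor level, with a median of 42.0 TPM. The class II genes H2-Aa (220, 292 and 325 CPM) and H2-Ab1 (135, 157 and 124 CPM) and their chaperone Cd74 (190, 279 and 254 CPM) were the highest. Epcam, also made by follicle cells, was at 175 ± 63.0 TPM, and the growth factor receptor Csf1r at 11.5 ± 4.83. Dendritic epidermal T cells, which carry 1 kind of gamma-delta receptor, gave 13 of 15 genes above the receptor level, with a median of 11.6 TPM. Trdc, the delta constant region, was at 23.6, 41.3 and 34.6 CPM, and Cd3e at 25.2, 62.0 and 46.4 CPM, both lowest in replicate 1. Tcrg-V5 and Trdv4, the variable segments of that receptor, stood at 42.6 ± 8.58 and 22.7 ± 12.5 TPM. None of the 5 genes of alpha-beta T cells passed in all 3 libraries, with Trac, their constant region, at 2.44 ± 0.387 TPM. The median of this list was 2.28, 2.04 and 1.02 TPM. It exceeded the 99th percentile of the receptor genes in replicate 1 (1.93 TPM) and replicate 3 (0.560) but not in replicate 2 (2.42), so absence cannot be read from this rule.

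Other cell types differed in how many of their genes were above the receptor level, a level that 48.9% of all protein-coding genes passed. No gene passed of 9 for endothelium, 9 for Merkel cells, 9 for adipocytes or 5 for mast cells. A single gene passed of 7 for smooth muscle and pericytes (Acta2), 10 for skeletal muscle (Mylpf), 5 for Schwann cells (Mbp), 7 for neutrophils (S100a9) and 6 for B and plasma cells (Cd79a). S100a9 passed on only 7, 8 and 5 counts. Mbp stood alone in its list at 117, 117 and 128 CPM. Melanocytes gave 3 of 9, Pmel, Mlana and Mitf, but not Tyr at 0.405 ± 0.351 TPM. Macrophages gave 3 of 8, Lyz2, Cd68 and Adgre1, and the complement genes C1qa, C1qb and C1qc did not pass. Red blood cells gave 2 of 6, Hba-a1 and Alas2. Dermal fibroblasts gave 5 of 10, near the share of all protein-coding genes. All 5 were of low level, led by Col1a1 at 22.7, 64.9 and 26.9 CPM. The summed fibroblast level was 77.5, 195 and 77.3 CPM, and 9 of the 10 genes were highest in replicate 2, against the 19.1% given above. Replicate 2 also had the most receptor reads. The part of those reads, or of dermis left on the sheet, was not tested.

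**Figure D3:**
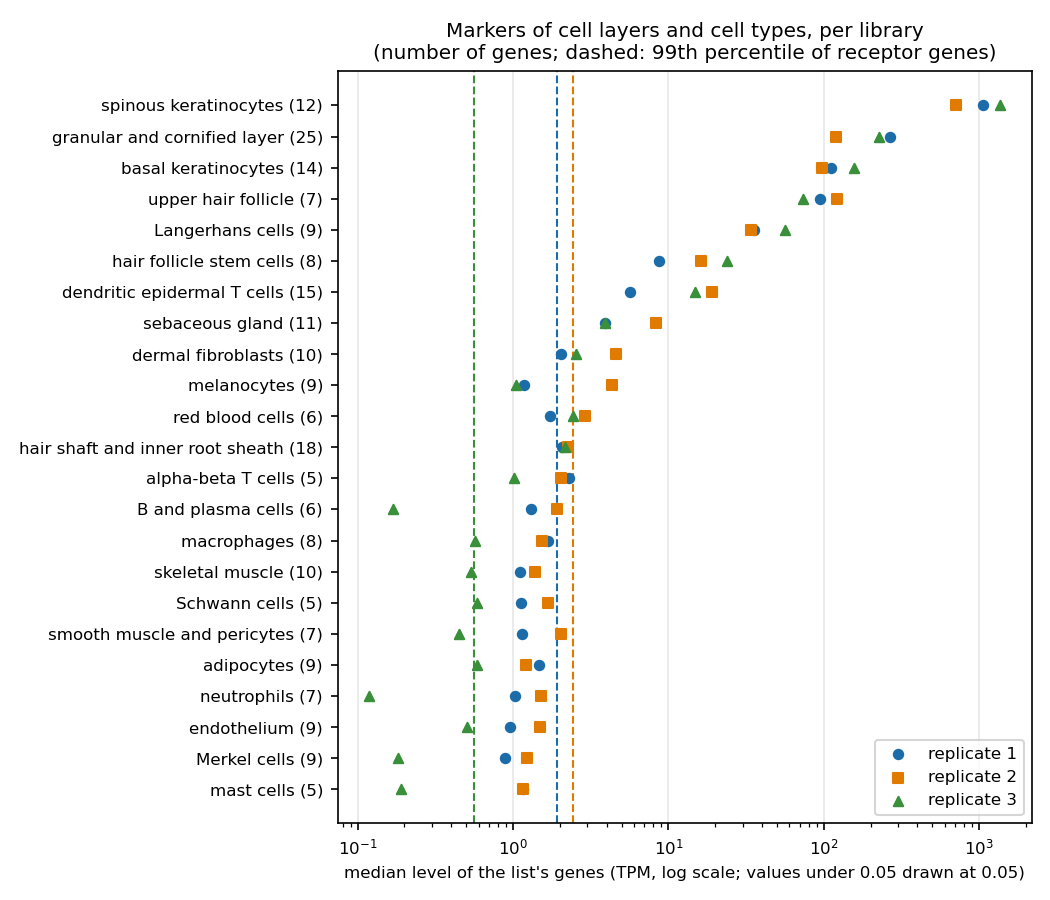
Median level of each marker list in each library, in TPM on a log axis, with the number of genes in brackets and dashed lines at the 99th percentile of the receptor genes in each library. The layers of the epidermis lie above 90 TPM, whereas endothelium, Merkel cells and mast cells lie below the dashed line of the same library.

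Several further programmes were measured. Of 12 proliferation genes 10 were above the receptor level, with a median of 5.37 TPM and a summed level of 175, 212 and 278 CPM. Mki67, the Ki-67 antigen of cycling cells, was at 40.5, 74.9 and 113 CPM, highest in replicate 3. All 14 circadian clock genes passed. Of all genes with a mean of at least 10 CPM, 40.2%, 38.0% and 21.8% were lowest in replicates 1, 2 and 3. The clock list was lowest in replicate 1 for 5 genes, in replicate 2 for 3 and in replicate 3 for 6. Per1, its highest member, was at 464, 497 and 289 CPM, and Per2, the only member with a ratio of at least 4, at 88.5, 120 and 20.4 CPM. Of 15 interferon-stimulated genes 6 passed, with a median of 1.52 TPM, and Usp18 was the highest at 28.8 ± 12.9 TPM. The wound and stress list had 6 of 13, and S100a8, Il1b and Defb3 were among those that did not pass. Of 30 Hox genes, which record position along the body, 14 passed, led by Hoxa5 (31.9 ± 5.74 TPM) and Hoxa7 (28.6 ± 8.99). Hoxc13, a known factor of hair and nail, was the only one of paralogue groups 10 to 13 among them. The interferon, wound and Hox lists were thus near or below the 48.9% of all protein-coding genes that passed. The Y-linked genes Ddx3y (70.7, 84.3 and 98.2 CPM), Uty, Kdm5d and Eif2s3y were above the receptor level in all 3 libraries, and Xist was below it at 7.81, 4.51 and 5.99 CPM.

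Across 15253 genes left by a filter on low counts, the rank correlation between libraries was 0.957 for replicates 1 and 2, 0.946 for 1 and 3 and 0.958 for 2 and 3. These are correlations across genes, which are not independent replicates. The common biological coefficient of variation, the spread beyond counting error, was 0.294. Each pair differed by more than the sampling noise of reads, with a median chi-square over genes of 6.76, 10.6 and 6.56 in pairs 1 and 2, 1 and 3, and 2 and 3. The means, 43.9, 90.8 and 112, were far higher and had another order. The files are thus not 1 set of reads deposited more than once, and this says nothing of whether the libraries came from separate mice. Of 8765 genes with a mean of at least 10 CPM, 7959 (90.8%) differed by less than 2-fold between the highest and lowest library, and the median ratio was 1.37. A ratio of at least 4 was found for 107 genes, 1.22% of those measured, of which 79 were protein-coding, and a ratio of at least 10 for 28. Over 2 libraries in place of 3 the count was 50 without replicate 1, 92 without replicate 2 and 41 without replicate 3. In 48 of the 107 (44.9%) replicate 3 was low and apart from the others, a pattern of 9.93% of the 8765 genes. In 27 (25.2%) replicate 1 was high, against 17.4%, and in 13 (12.1%) replicate 2 was high, against 7.96%. After subtraction of the receptor density 100 of the 107 kept a ratio of at least 4.

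**Figure D4:**
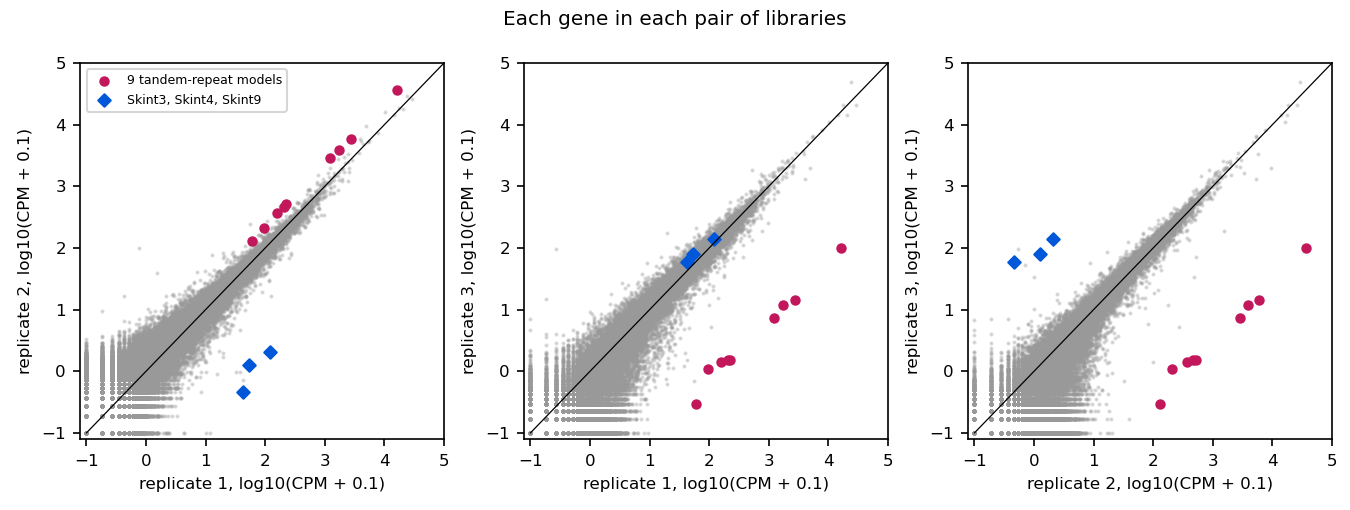
Level of each gene in each pair of libraries as log10(CPM + 0.1), with the line of equal level. The cloud narrows towards high levels, the 9 tandem-repeat models lie far below the line in replicate 3, and Skint3, Skint4 and Skint9 lie off the line in replicate 2.

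The largest ratios belonged to a set of repeat models. Gm10800 on chromosome 2 (98666547 to 98667301, minus strand), typed as protein-coding, was at 16363, 36229 and 99.2 CPM and had the highest mean TPM of all protein-coding genes through replicates 1 and 2. Gm26870 on chromosome 9 (3000282 to 3038313, minus strand) was at 2746, 5852 and 14.3 CPM, and Gm10719 within the same stretch had the largest ratio, 674, at 59.0, 132 and 0.195 CPM. The 9 models Gm10800, Gm10801, Gm21738, Gm10722, Gm10718, Gm10717, Gm10719, Gm11168 and Gm26870 together took 2.28%, 5.05% and 0.0138% of the counts. Their transcripts are tandem repeats: shifted by 225 to 237 bases, 234 in 6 of the 9, they matched themselves at 52.7% to 81.5% of positions. At all shifts tried from 200 to 260 bases the median was 30.2% to 31.9%, and Krt10 reached 29.7% at its best shift. A unit of 234 bases is also that of the mouse major satellite, the repeat around centromeres. The order of the libraries, replicate 2 above 1 above 3, was that of the reads in receptor genes, and the part of those reads in these levels was not tested.

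Tpm3-rs7, Ifi202b and part of the Skint family were present in some libraries and nearly absent from others. Skint genes encode butyrophilin-like proteins of keratinocytes, and Skint1 is needed for the selection of dendritic epidermal T cells. Skint3 was at 122, 1.94 and 141 CPM, Skint4 at 42.8, 0.353 and 58.7 CPM and Skint9 at 53.9, 1.15 and 79.4 CPM, each low in replicate 2 alone. The 3 genes are neighbours on chromosome 4, from 112072016 (the start of Skint4) to 112433985 (the end of Skint9). Other members were also lowest in replicate 2 but stayed above 30 CPM there. Skint1 was at 82.5, 37.1 and 126 CPM, Skint6 at 157, 85.5 and 210 CPM and Skint5 at 273, 222 and 443 CPM, and Skint11 was at 34.7 CPM in replicate 2 against 82.8 in replicate 1. Skint2 (26.9, 35.1 and 34.8 CPM) and Skint10 (263, 326 and 314 CPM), the highest of the family in mean TPM, were not low there. None of the 3 had a near-identical copy among the annotated transcripts.

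Ifi202b, an interferon-inducible gene of the innate DNA-sensing family (chromosome 1, 173962568 to 173982744, minus strand), had the opposite pattern, at 0.664, 98.9 and 1.30 CPM. The 8, 1119 and 20 counts behind these values leave replicate 2 far above the others. A pair of processed pseudogenes of a ribosomal protein, Rps3a3 (42.8, 0.618 and 52.5 CPM) and Rps3a2 (31.6, 0.884 and 33.3 CPM), were low in replicate 2 alone. Their parent Rps3a1, at 293, 445 and 316 CPM, was highest there, and the copies are 98.9% and 99.5% identical to it. In replicate 3 alone Tpm3-rs7, a copy of the tropomyosin gene Tpm3 with 99.1% identity, was present, at 0.166, 0.442 and 94.9 CPM, and Tpm3 itself was lowest there, at 327, 278 and 190 CPM. The labels give no strain or parent for each library.

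Among the 20 largest ratios the others were Gm25939, an snRNA model (1.41, 39.4 and 0.0651 CPM), Gm14226 (55.9, 32.7 and 0.586), Mir6236 (108, 271 and 5.21) and Gm48565 (37.8, 0.884 and 1.11). Gm25939 was far higher in replicate 2 than in the others, and Gm48565 far higher in replicate 1. Gm14226 and Mir6236 were low in replicate 3.

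**Figure D5:**
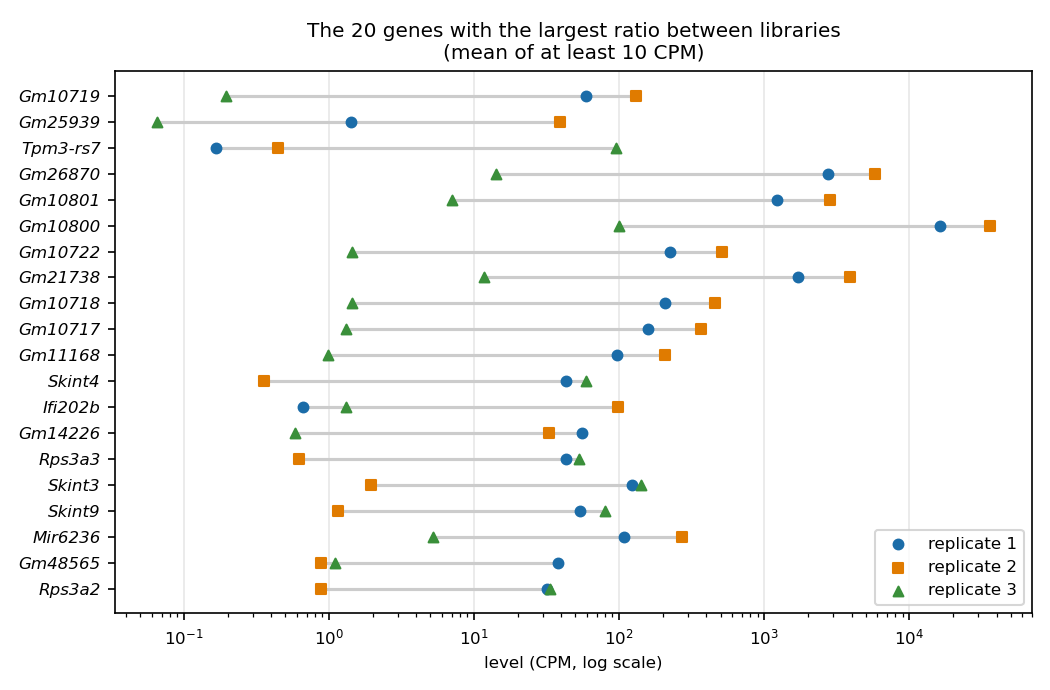
The 20 genes with the largest ratio of the highest to the lowest library among genes that averaged 10 CPM or more, in CPM on a log axis, with 1 point for each library joined by a line. Repeat models are low in replicate 3, Skint3, Skint4 and Skint9 are low in replicate 2, and Tpm3-rs7 is high in replicate 3 at 94.9 CPM.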

How the data were processed

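Values were read from the deposited counts per gene, whole numbers that were not normalized, 1 file for each library, with exon coordinates and summed exon length per the file headers. Per the submitters' processing notes, Trimmomatic 0.36, STAR 2.5.2b and featureCounts of Subread 1.5.2 were used, and GRCh38 and GRCm38 are both listed. The use of strand and the rule for multiply mapped reads are not given in the sources used here, so overlapping or near-identical genes can share or lose reads. Of the 49315 identifiers, 48970 (99.3%) were in GENCODE M21 (GRCm38), which gave symbols and types, all of them on the same chromosome.

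CPM is counts for each 1000000 counts of the library, and TPM is counts per exonic base scaled to 1000000 over all genes. As the design holds 1 group, no test between groups was made. The coefficient of variation came from edgeR 4.0.16 in R 4.3.3 (filterByExpr, TMM, common dispersion without covariates), checked on simulated counts. Copies were searched with megablast 2.17.0. Alternatives were size factors, filters, thresholds, other totals, subtraction of the receptor-gene density and leaving out each library. A count of 0 was taken to allow 3 counts, and such limits cover counting error only.

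Named were the 40 highest protein-coding and 10 highest other genes, the highest, defining and absent members of each list, and the 20 largest ratios between libraries. The members and lists were chosen with earlier results of these data known. The receptor-level rule, the 9 repeat models and the shifts tried for them (first set wider and then narrowed), the motifs and the gene families were chosen after the data had been seen. Of the named genes Ctsv and Krt85 had no match. Promoters came from the RefSeq table, matched by symbol. The entry for Krt14 lies inside the gene and is not shown, but it is counted with the basal list. The other libraries of the series were not analysed here, except that the 6 control files at 3 weeks were read and hold 0 for every gene.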

Additional observations from a re-analysis of the deposited data

How the results depend on the processing

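No paired analysis was possible because the libraries form 1 group. The mean rank correlation of 0.954 was 0.943 over genes with a mean of at least 10 CPM and 0.850 over all genes of the files, and lay between 0.946 and 0.958 with 1 library left out. The coefficient of variation of 0.294 was 0.772 with no filter on low counts and between 0.274 and 0.328 with 1 library left out. Genes with a ratio of at least 4, 107 in all, were 24650 with no filter, 110 with TMM factors, 87 with median-ratio factors, 98 without the repeat models and between 41 and 92 with 1 library left out. The count of protein-coding genes at 1 TPM or more in all 3 libraries was 11959. With a threshold of 5 TPM in its place the count was 8316, and with 0.5 TPM it was 13147. Without replicate 3, where fewer libraries had to pass, it was 13466 at 1 TPM. With the total taken over nuclear protein-coding genes without the repeat models, an alternative added after seeing the data, 37 of 39 list medians moved by more than 1 SD. Desmosome genes went from 348 to 686 TPM, immediate early genes from 585 to 1160 and endothelium from 0.940 to 2.10. Sex-linked genes went from 17.0 to 61.2, where members outside that total also leave the list. For lists whose members all stay in that total, the shift follows from the smaller total, which multiplies every remaining gene of a library by the same factor. Receptor genes are raised by that factor too, so a higher TPM here is not a clearer signal. Levels near those of receptor genes in replicates 1 and 2 cannot be read as expression.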

Other observations

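Gene families outside the lists above add to the picture of this epidermis. Their counts stand beside the 48.9% of all protein-coding genes that were above the receptor level. The clade B serpins, intracellular protease inhibitors, had 10 of 26 genes above the receptor level and took 0.314 ± 0.0251% of the counts. Serpinb7 was at 477, 265 and 339 CPM, and Serpinb3b at 8.80, 8.48 and 56.8 CPM, high in replicate 3 alone. Of 14 S100 genes, small calcium-binding proteins, 10 passed, led by S100a11 at 876 ± 145 TPM and S100a10 at 172 ± 33.7. Of 42 beta-defensin genes, which encode antimicrobial peptides, 5 passed, and Defb6 (56.5, 111 and 67.8 CPM) stood far above all but Defb1 (57.6, 29.0 and 34.2 CPM). Defb13, Defb11 and Defb15 passed on 18 counts or fewer in each library. Cytosolic ribosomal protein genes passed in 79 of 82 cases and took 1.52 ± 0.0661% of the counts. Keratin-associated proteins of the hair shaft passed in 7 of 56 cases, and none reached 100 TPM in all 3 libraries. Of 15 small proline-rich genes 4 passed, with Sprr1a highest at 156, 134 and 217 CPM.

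Both control groups at 3 weeks of age have 3 files each, and all 6 list 0 for every gene, so the 6-month libraries could not be set beside younger controls.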
